A study of Mus musculus with 6 samples.

Results

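Gene levels in the ipsilateral mouse cortex were compared between day 7 and day 3 after photothrombotic stroke, with the day 3 library as the reference and the sham library outside the ratio. Of the 15441 genes with a value in any of the 6 libraries of the series, 14564 had one on day 3 or day 7, and the 12178 genes with a level of at least 1 FPKM (a fragment count scaled by transcript length and by the mapped reads of the library) in either of these libraries were compared. A gene's level was set to whichever was greatest among its transcript-start values added up, its transcript-end values added up and its highest lone splicing value. The comparison was a log2 ratio of day 7 over day 3 after adding 0.1 FPKM to each level, and a gene is called higher or lower below when the ratio was at least 1 in size, a 2-fold difference.

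Male C57BL/6J mice aged 6 to 8 weeks received 1 mg of Rose Bengal, a dye that clots vessels under light, and the sensorimotor cortex, 2 mm to the side of bregma, was illuminated for 15 min. Sham mice went through the operation without the light and were killed on day 7. Cortical RNA of 3 mice was pooled at each time, so that day 1, 3, 7, 14 and 28 and sham are 1 library each, and no difference below has a replicate check or a p-value. All libraries were poly(A)-selected and strand-specific. Because whole cortex was used, fewer cells of a type and less RNA per cell cannot be told apart.

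In the first week after a cortical infarct, microglia and astrocytes divide and take on reactive states, blood monocytes enter the lesion, and new vessels form at its edge. Dividing cells switch on the genes of mitosis together, largely through promoters that carry the cell cycle homology element TTTGAA and the CCAAT box. Type I interferon acts through a transcription factor complex that includes IRF9 and binds a pair of TTTC repeats in front of their target genes, and phagocytes that clear debris fill with lysosomal proteases and lipid-handling proteins.

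The gene levels summed to 241163 FPKM on day 3 and 245560 FPKM on day 7, the median log2 ratio over all genes compared was 0.01, with quartiles of -0.17 and 0.19. At day 7, 392 genes were called higher, 3.22% of those compared, and 342 lower, 2.81%, together 6.03%. Of these, 316 and 282 were listed in both libraries, 2.62% and 2.34% of the 12042 genes so listed and 4.97% together. The other calls belonged to the 60 genes listed on day 3 only and the 76 listed on day 7 only, for which no fold is given, since widely used genes such as Rpl41 and Sumo2 were among them. The 3.22% higher and 2.81% lower are the background for the members called in each list below. A gene with under 1 FPKM on day 3 or day 7 entered through the other day, where it was higher. With at least 1 FPKM required in both libraries, 172 of 11383 genes were called higher and 156 lower.

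**Figure D1:**
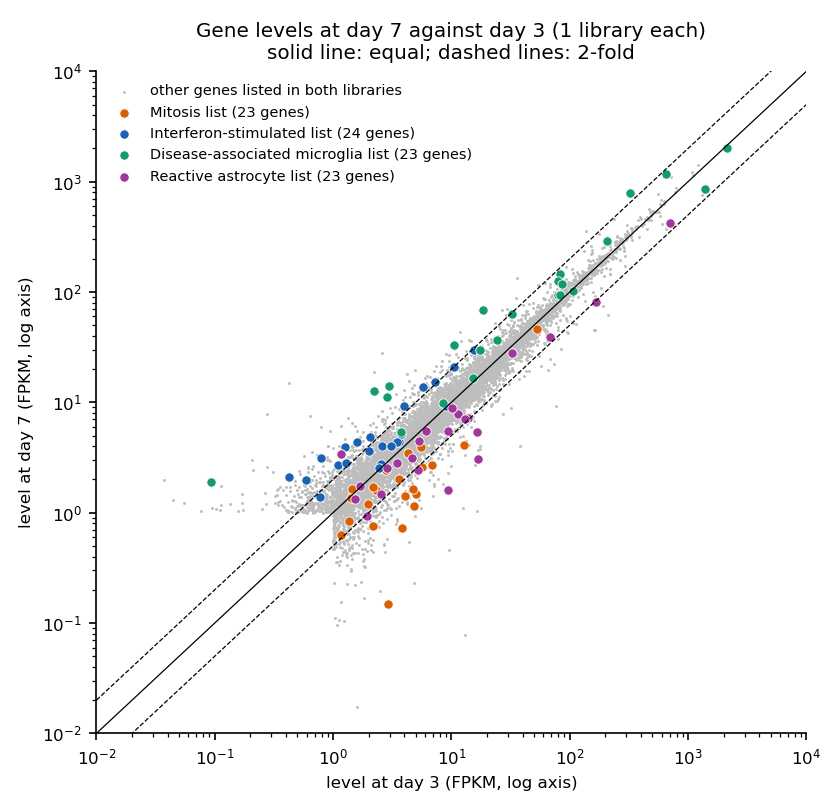
Level of each gene on day 7 (vertical, FPKM, log axis) against day 3 (horizontal, FPKM, log axis), 1 library each, for genes listed in both; colours mark 4 gene lists, the solid line equality and the dashed lines 2-fold. Most genes lie inside the dashed lines, the orange mitosis genes lie mostly below the solid line and the blue interferon-stimulated genes above it.

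Genes of mitosis had the lowest median of the lists with at least 10 compared members. Of its 30 members 24 were compared, 23 had a ratio below 0 and 11 were called lower, none higher. The median log2 ratio was -0.80 beside 0.01 over all genes, of which 2.81% were called lower. Some of the mitosis genes called, such as Ccnb1, were under 1 FPKM on day 7 and entered through day 3. With at least 1 FPKM required in both libraries, 7 of 18 were called, beside 156 of 11383 genes called lower, and the median was -0.58. Top2a, the topoisomerase that untangles replicated chromosomes, had the highest level of the members called. It was at 0.786 FPKM in sham, 1.64 on day 1, 12.8 on day 3, 4.07 on day 7, 1.87 on day 14 and 0.549 on day 28. Day 3 was the highest of the 6 libraries and day 7 the next, so that the level was lower on day 7 than on day 3 but still above the other libraries, at a log2 ratio of -1.63.

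Ube2c, the ubiquitin-conjugating enzyme of the anaphase-promoting complex, went from 6.80 FPKM on day 3 to 2.69 on day 7, beside 0.788 on day 1, 0.617 on day 14, 0.309 on day 28 and no listing in sham. Cdc20, which activates the same complex, was at 4.08 FPKM on day 3 and 1.42 on day 7, with 0.661 in sham and at most 0.981 in the other libraries. Ccnb1, the cyclin that starts mitosis, was listed only in these libraries, at 3.84 FPKM and 0.730. For its partner kinase Cdk1 the levels were 2.17 and 0.760 FPKM, the latter within the 0.356 to 0.865 of the other libraries.

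The remaining members called lower have parts in the spindle or the chromosome passenger complex. Spindle assembly factor Tpx2 was at 5.001 and 1.47 FPKM, kinetochore protein Nuf2 at 4.78 and 1.15, and Prc1, which bundles midzone microtubules, at 4.72 and 1.65. Pbk, a mitotic kinase, was at 5.67 and 2.57 FPKM, and Cdca8, the borealin subunit, at 2.93 and 0.149. Hmmr was listed at 1.40 FPKM on day 3 and not on day 7. Not every dividing-cell gene was lower: Mki67 was at 2.64 and 2.47 FPKM (66.8% of the latter inside its span), Ccna2 at 2.78 and 2.42, Birc5 at 4.26 and 3.47, and Aurka, the single member above 0, at 1.43 and 1.63. Nusap1 is counted in the list, but 2.4% of its value came from events inside its annotated span, and the value of Tpx2 depends on the event type, with a log2 ratio of -1.70 overall and -0.87 from its end events or from shared events. Of the 10 members called lower and listed in both libraries, 9 were also called lower when the value was built from shared events alone. Over all genes called lower, listed in both and with shared events, this held for 232 of 254. Where the start sum, the end sum and shared events all gave a ratio, all passed for 5 of 6 mitosis genes, beside 111 of 134 over all genes.

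Genes of the G1/S step and DNA replication, which act before mitosis, lay closer to 0. Of 17 compared, 12 lay below 0 with a median log2 ratio of -0.34, and 2 were called lower. With at least 1 FPKM required in both libraries, 1 of 14 was called lower and 1 higher, and the median was -0.17. Rrm2, the inducible subunit that makes deoxyribonucleotides, was at 0.803 FPKM in sham, 0.901 on day 1, 5.93 on day 3, 2.58 on day 7, 1.19 on day 14 and 0.771 on day 28, again with day 3 highest and day 7 next. Uhrf1, which maintains DNA methylation at the fork, was at 1.96 and 0.571 FPKM and so entered through day 3. The helicase subunits Mcm2 to Mcm7 were not called, with 2.44 and 2.29 FPKM for Mcm2 and 5.06 and 3.91 for Mcm6. E2f1, a transcription factor of this step, was called higher, from 1.48 to 3.73 FPKM, but day 3 was the library apart, since the other 4 lay between 3.11 and 3.83, and from start events alone its log2 ratio was 0.82.

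The promoters of the mitosis and replication lists differ in the letters they hold. Here and below, list members were searched whether or not they were compared. RefSeq promoters on GRCm38.p6 (250 bases before to 50 after the start) were found for 25 mitosis genes, of which 19 (76.0%) held TTTGAA, 21 (84.0%) CCAAT and 18 (72.0%) both, on either strand. Over all 27025 genes with such a promoter the shares were 20.2%, 41.1% and 8.0%, and over the 9402 compared genes that have one 13.6%, 42.8% and 5.6%. Of 17 replication genes, 2 held TTTGAA, 10 CCAAT and 1 both. The stretches before the start of the 2 mitosis genes with the highest levels among those called lower are shown because they hold both elements, with TTTGAA (or TTCAAA on the other strand) and CCAAT (or ATTGG) in capitals. The Top2a stretch is chr11:99024190-99024439 on the minus strand and the Ube2c stretch chr2:164769679-164769928 on the plus strand; both hold 6 matches to CCAAT, counted per strand, with 2 to TTTGAA for Top2a and 1 for Ube2c.
Top2a: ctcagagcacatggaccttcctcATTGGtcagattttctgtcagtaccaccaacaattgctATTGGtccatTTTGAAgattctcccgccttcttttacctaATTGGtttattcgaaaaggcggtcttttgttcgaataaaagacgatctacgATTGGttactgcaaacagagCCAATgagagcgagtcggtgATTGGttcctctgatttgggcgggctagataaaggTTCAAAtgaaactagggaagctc
Ube2c: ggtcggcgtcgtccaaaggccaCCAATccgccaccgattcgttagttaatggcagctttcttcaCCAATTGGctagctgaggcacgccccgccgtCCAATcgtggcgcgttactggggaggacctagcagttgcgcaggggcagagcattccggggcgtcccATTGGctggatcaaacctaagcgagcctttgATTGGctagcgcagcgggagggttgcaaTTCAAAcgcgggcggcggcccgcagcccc

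Interferon-stimulated genes had the highest median of all lists. All 26 members compared, of 30, had a ratio above 0, 14 were called higher and none lower, with a median log2 ratio of 1.06. Over all genes compared, 3.22% were called higher. Some of the interferon-stimulated genes called, such as Irf7, were under 1 FPKM on day 3 and entered through day 7. With at least 1 FPKM required in both libraries, 9 of 20 were called, beside 172 of 11383 genes called higher, and the median was 0.97. Irf7, the factor that amplifies the interferon response, was at 0.0669 FPKM in sham, 0.129 on day 1, 0.798 on day 3, 3.10 on day 7, 5.14 on day 14 and 1.18 on day 28. Its level was higher in each library from sham to day 14, and the log2 ratio of day 7 over day 3 was 1.83.

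Among the effectors called, Ifit3 had the highest level. It was at 4.71 FPKM in sham, 6.16 on day 1, 7.21 on day 3, 15.2 on day 7, 17.9 on day 14 and 6.12 on day 28, with day 7 and day 14 apart from the other 4. Ifit1, of the same family, was at 1.60 and 4.35 FPKM, and Ifi27l2a, a mitochondrial interferon-induced protein, at 5.74 and 13.7. The oligoadenylate synthetase genes Oasl2 (2.07 and 4.84 FPKM) and Oas1a (1.09 and 2.71) were called higher, as were the DNA-binding protein gene Ifi204 (1.30 and 2.80) and Trim30a (0.426 and 2.12). Regulators of the response were among them, with Usp18, which removes ISG15 and blocks the receptor, at 1.25 and 3.91 FPKM and Dhx58, a RIG-I-like helicase, at 0.595 and 1.97.

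Cxcl10, a T cell chemokine, was at 2.21 FPKM on day 1, 1.17 on day 3, 3.42 on day 7 and 8.33 on day 14, and so was lower on day 3 than on either side. Rsad2 and Zbp1 were listed on day 7, at 1.14 and 1.21 FPKM, and not on day 3. The members with the highest level that missed the call were Lgals3bp, with 15.4 and 30.1 FPKM, and Bst2, the virus-tethering protein, with 10.6 and 20.98, at log2 ratios of 0.96 and 0.98. Ddx58 (2.45 and 2.52 FPKM), Ifi35 (2.52 and 2.76) and Ifit2 (3.60 and 4.39) had log2 ratios of 0.04, 0.12 and 0.28, and Irf9, with a ratio of 0.05, had only part of its value inside its span. For 8 of the 12 members called higher and listed in both, the start sum, the end sum and shared events all gave a ratio. For each of these 8 all 3 values passed the 2-fold mark, beside 120 of 153 such genes over all genes called higher.

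The paired TTTC element was searched as TTTC, any 2 bases and TTTC, on both strands. It was in the promoter of 12 of the 20 list members with a RefSeq promoter (60.0%), against 4.0% of all 27025 genes and 3.7% of the compared genes. Of the 8 called members with a promoter in the table, 6 held it. The stretches before the start of Ifit3, chr19:34583279-34583528, and of Ifit1, chr19:34640639-34640888, both GRCm38.p6 and plus strand, are shown because, of the called members with a promoter in the table, these have the highest levels among those that hold the element, each with 2 copies in capitals.
Ifit3: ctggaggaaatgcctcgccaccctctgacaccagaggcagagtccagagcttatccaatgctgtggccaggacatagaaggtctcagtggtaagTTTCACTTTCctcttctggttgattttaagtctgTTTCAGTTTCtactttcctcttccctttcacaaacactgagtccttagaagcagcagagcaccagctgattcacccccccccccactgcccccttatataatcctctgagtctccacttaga
Ifit1: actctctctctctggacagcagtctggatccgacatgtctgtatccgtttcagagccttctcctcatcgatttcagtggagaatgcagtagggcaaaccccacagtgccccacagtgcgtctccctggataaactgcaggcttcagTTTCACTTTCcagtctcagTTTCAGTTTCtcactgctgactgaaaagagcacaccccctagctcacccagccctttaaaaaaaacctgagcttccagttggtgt

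**Figure D2:**
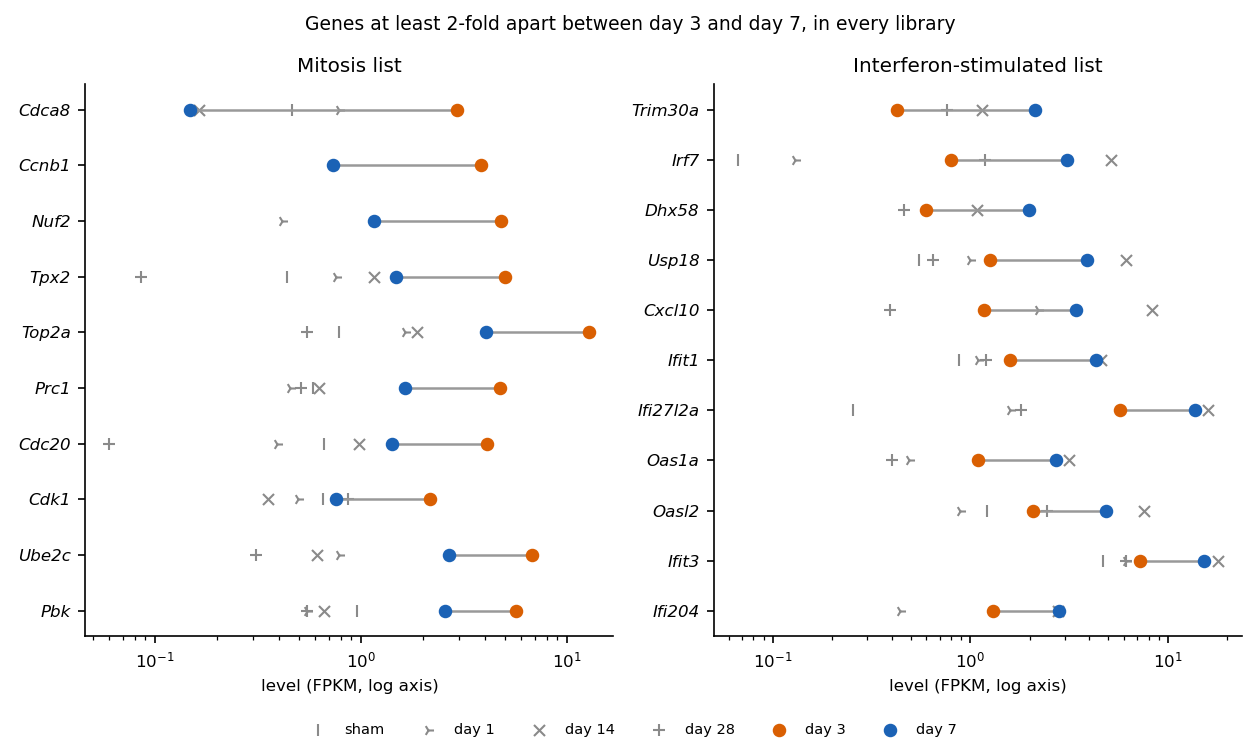
Level in every library (FPKM, log axis) of the members of the mitosis list (left, 10 genes) and the interferon-stimulated list (right, 11 genes) drawn from those that were listed at both times and at least 2-fold apart; a line joins day 3 (orange) and day 7 (blue), grey marks are the other libraries, and a library without a listing has no mark. In the left panel day 3 is the highest library for each of the 10 genes, and in the right panel day 14 (grey cross) lies above day 7 for 8 of the 11 genes.

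MHC class I genes, which interferon also induces, lay mostly above 0 as well. Of 14 compared, 13 had a ratio above 0 and 2 were called higher, with a median log2 ratio of 0.62. B2m, the light chain of every class I molecule, was at 71.1 FPKM in sham, 91.6 on day 1, 155 on day 3, 239 on day 7, 308 on day 14 and 91.6 on day 28, a log2 ratio of 0.62. The immunoproteasome subunit Psmb9 was at 1.17 and 2.53 FPKM and the class I gene H2-Q4 at 2.25 and 5.01, both called higher; reads of H2 genes may be split between near copies. H2-D1 (28.2 and 45.5 FPKM), H2-K1 (12.3 and 20.2) and the peptide transporter Tap1 (1.74 and 3.07) were not called.

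Of 7 MHC class II genes compared, 4 had a ratio above 0 and 3 below. H2-Ab1 was at 4.82 and 4.42 FPKM, H2-Eb1 at 5.46 and 5.29, and H2-Aa at 5.47 and 6.23, and their highest levels were in the day 14 library, with 8.83, 6.89 and 11.1. H2-DMb1, which helps load peptides, was at 2.29 and 3.33 FPKM, and Ctss, the protease that trims the class II chaperone, at 143 and 196. The list median was 0.19, or -0.05 from end events, and 2 members were called. Ifi30 had 5.89 FPKM on day 3 and was unlisted in every other library, and H2-DMa (2.10 and 5.34 FPKM, log2 ratio 1.31) had a ratio of -0.10 from its end events.

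Disease-associated microglia genes, the set that microglia switch on around plaques, myelin debris and dying neurons, had mostly ratios above 0. Of 23 compared, 20 had a ratio above 0 and 7 were called higher, none lower, with a median log2 ratio of 0.65. Clec7a, the dectin-1 receptor, was not listed in sham or on day 1 and was at 2.20 FPKM on day 3, 12.6 on day 7, 8.72 on day 14 and 1.18 on day 28. Cst7, an inhibitor of cathepsins, was at 0.403 FPKM in sham, 2.95 on day 3, 14.0 on day 7, 17.4 on day 14 and 1.13 on day 28.

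Igf1, the growth factor, was at 0.832 FPKM in sham, 0.574 on day 1, 2.84 on day 3, 11.2 on day 7, 4.86 on day 14 and 1.12 on day 28, with day 7 apart from every other library. Lpl, the lipase that frees fatty acids from lipoproteins, was at 5.73, 6.09, 10.5, 32.9, 14.3 and 6.37 FPKM in the same order. Gpnmb, a transmembrane glycoprotein of lipid-laden phagocytes, was at 18.6 FPKM on day 3 and 68.9 on day 7. Itgax, the integrin CD11c, was at 0.0923 FPKM on day 3 and 1.90 on day 7 and unlisted in sham and on day 1, so its fold rests on a level far below 1 FPKM.

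Spp1, which encodes osteopontin, was called higher at 323 and 783 FPKM, and the deposited transcript starts for it differed between the times. At day 3, 289 of its FPKM were on a first exon that begins at position 104436192 of chromosome 5 (mm10), inside the gene, and 30.8 on the exon from 104435118, the annotated gene start, to 104435196. At day 7 the inner start held 1.48 FPKM and the outer one 728. In the other libraries the inner start held between 0.361 FPKM on day 1 and 1.5 on day 28, so that day 3 stood apart from all of them. The last exon, from 104440229 to 104441048, held 321 FPKM on day 3 and 783 on day 7.

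The other members of the list had smaller ratios and were not called. Ctsd, the lysosomal aspartyl protease, was at 124 FPKM in sham, 151 on day 1, 655 on day 3, 1169 on day 7, 486 on day 14 and 135 on day 28, a log2 ratio of 0.84 and the largest gain in FPKM of all genes compared. Trem2, the lipid-sensing receptor, and Tyrobp, its signalling partner, had log2 ratios of 0.95 and 0.83, and Cd68, a phagocyte lysosomal protein, 0.78. Apoe went the other way, with 1386 FPKM on day 3 and 855 on day 7, a log2 ratio of -0.70, and its levels ran from 287 on day 1 to 3534 on day 14. Fth1, the ferritin heavy chain, was at 2147 and 2021 FPKM.

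Homeostatic microglia genes lay near 0, with 6 of 11 above 0 and a median log2 ratio of 0.05. Csf1r, the receptor that microglia need to survive, was at 50.4 and 52.3 FPKM, and P2ry12, the purinergic receptor of ramified microglia, at 21.7 and 17.7. Siglech, a sialic acid receptor, was the single member called, with 10.3 FPKM on day 3 and 4.22 on day 7, beside 5.39 to 9.91 in the other libraries.

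Of monocyte-derived macrophage markers, 10 of 12 had a ratio below 0, with a median log2 ratio of -0.29. Arg1, the arginase of wound-healing macrophages, had the lowest ratio of the list at -3.37. It was at 1.51 FPKM on day 1, 12.5 on day 3 and 1.11 on day 7 and was not listed in sham or on day 14 and day 28, so that day 3 alone was high. Lyz2, the lysozyme of myeloid cells, went from 137 to 357 FPKM, beside 6.73 in sham, 11.05 on day 1, 196 on day 14 and 26.2 on day 28, and Ms4a7 from 1.44 to 3.96. Fn1, fibronectin, was at 37.7 and 28.0 FPKM, and the monocyte marker Ly6c2 at 1.89 and 0.911, the latter close to the call with a log2 ratio of -0.98.

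Neutrophil and lymphocyte markers were near the floor of the comparison. For neutrophils, 2 of 15 markers were compared, S100a8 at 1.59 and 0.682 FPKM, which was called lower, and Csf3r at 4.03 and 5.74. For T and B lymphocytes, 2 of 18 were compared, the pan-leukocyte gene Ptprc at 2.64 and 2.34 FPKM and Cd4 at 1.49 and 2.78, so no description of these cells can be drawn from either library.

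Lysosome genes were mostly above 0 without being called. All 38 members were compared, 34 had a ratio above 0 and 1 was called, with a median log2 ratio of 0.32; the call is Atp6v0d2, a subunit of the proton pump, listed at 1.36 FPKM on day 7 and not on day 3. Besides Ctsd, Gusb, beta-glucuronidase, was at 14.6 and 26.7 FPKM, and Grn, progranulin, at 68.1 and 111. Psap, the precursor of saposins, was at 467 and 562 FPKM, Lamp1, a membrane protein of the organelle, at 150 and 176, and Tpp1, a peptidase, at 26.9 and 16.5, the lowest ratio of the list at -0.70. The letters CACGTG, the core of the CLEAR element, were in the promoter of 12 of 29 lysosome genes (41.4%), beside 8.1% of all genes and 11.8% of the compared genes.

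Lipid handling genes had a median log2 ratio of 0.28 over 20 members, with 3 called higher and 1 lower. Apart from Lpl these were Fabp4, a fatty acid carrier of macrophages (0.542 and 1.56 FPKM), and Apoc1 (2.28 and 5.399), while Pparg, the lipid-sensing nuclear receptor, was called lower (1.88 and 0.876). Fabp4 on day 3 and Pparg on day 7 were under 1 FPKM. With at least 1 FPKM required in both libraries, 2 of 18 were called higher and none lower. Plin2, which coats lipid droplets, was at 1.37 FPKM in sham, 5.34 on day 1, 44.6 on day 3, 44.7 on day 7, 11.9 on day 14 and 1.90 on day 28. Abca1, the cholesterol exporter, was at 13.6 and 16.4 FPKM. The Fc gamma receptor and Ms4a list had a median log2 ratio of 0.30 over 9 members, and Fcer1g, the common gamma chain, was at 29.4 and 51.2 FPKM. Complement genes had a median of 0.11 over 13 members, 0.53 from end events and 0.41 with at least 5 FPKM in either library, with Itgax the single member called. The 3 chains of C1q had ratios between 0.53 and 0.77, as C1qa at 152 and 259 FPKM.

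Chemokines and cytokines were mixed, with 3 called higher and 1 lower of 22 and a median log2 ratio of 0.15. Ccl2, the monocyte attractant, was at 5.24 FPKM on day 1, 2.06 on day 3, 0.594 on day 7 and 1.73 on day 14. Ccl3, a macrophage inflammatory protein, went from 2.84 to 5.90 FPKM, and Ccl5, a T cell attractant, from 0.620 to 1.38 before 9.12 on day 14. Ccl2 on day 7 and Ccl5 on day 3 were under 1 FPKM. With at least 1 FPKM required in both libraries, 2 of 18 were called higher and none lower. The call for Ccl3 was lost when events outside its annotated span were left out, with a log2 ratio of 0.95. Tgfb1 was at 7.07 and 9.38 FPKM and was not called.

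**Figure D3:**
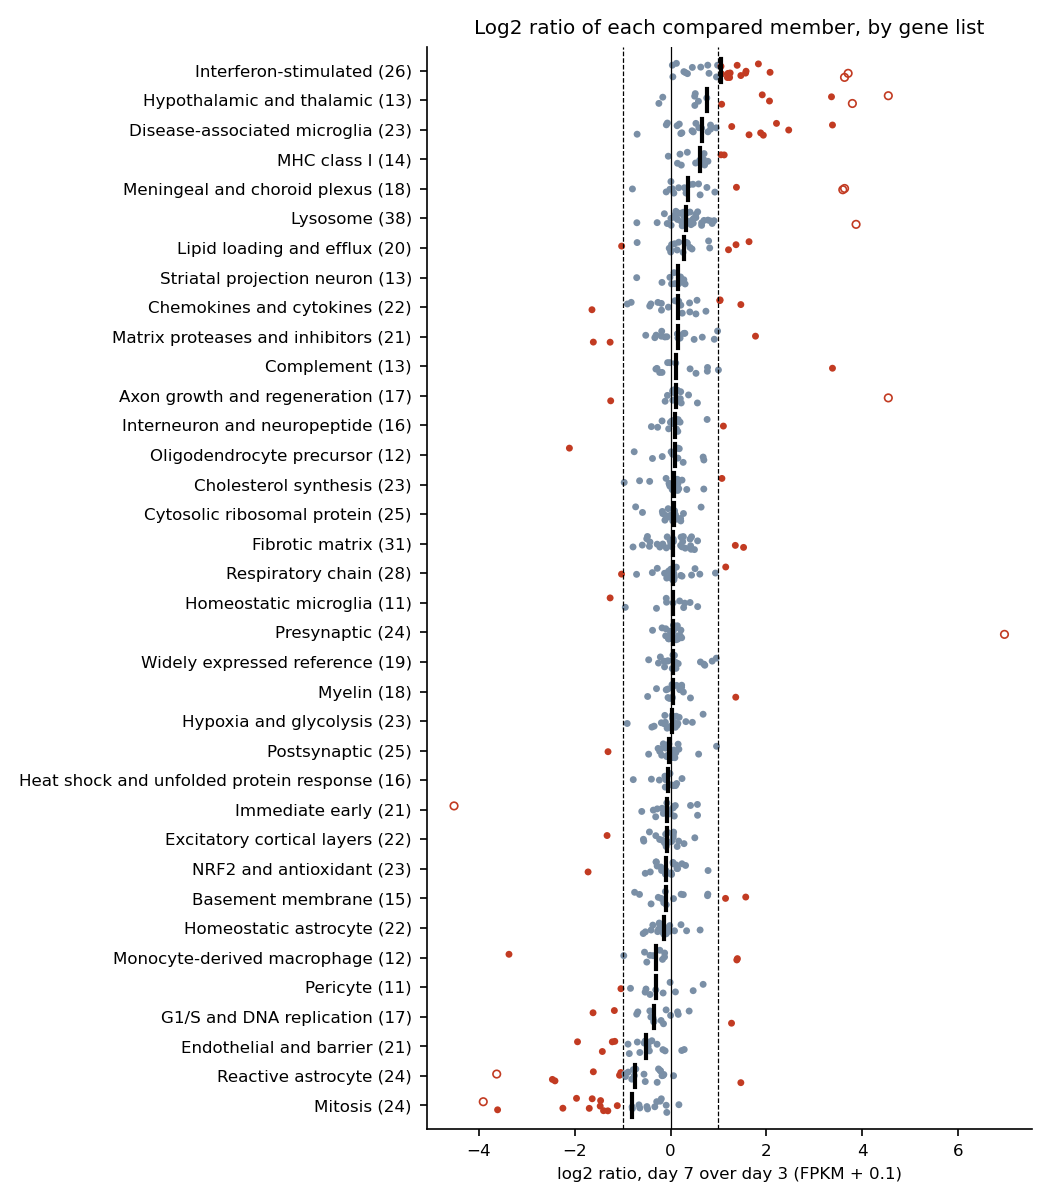
Log2 ratio of day 7 over day 3 (FPKM + 0.1) for each compared member of the lists with at least 10 compared members (number in parentheses), sorted by median (black bar); red points pass 2-fold (dashed lines), open points were listed in 1 of the 2 libraries only and the thin line is the median of all genes, 0.01. The medians run from -0.80 for mitosis to 1.06 for interferon-stimulated genes, and the neuronal, ribosomal, glycolytic and respiratory lists sit at the line.

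Reactive astrocyte genes had mostly ratios below 0. Of 24 compared, 22 had a ratio below 0 and 6 were called lower, with a median log2 ratio of -0.74; Cxcl10, which the list shares with the interferon genes, was the 1 member called higher. Vim, the intermediate filament vimentin, was at 15.5 FPKM in sham, 64.2 on day 1, 167 on day 3, 81.5 on day 7, 67.6 on day 14 and 21.04 on day 28. Nes, the filament nestin, was at 5.17 FPKM on day 3 and 2.42 on day 7. Gfap, the filament that defines the reactive state, was at 85.8, 330, 698, 422, 380 and 150 FPKM in the same 6 libraries, a log2 ratio of -0.72 that did not reach the call. In each of these day 3 was the highest library.

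The other members called lower differed in their levels on day 1 and day 14. Timp1, an inhibitor of metalloproteases, was at 16.2 FPKM on day 1, 16.5 on day 3, 5.33 on day 7 and 6.86 on day 14. Tgm1, transglutaminase 1, was at 6.13, 9.38, 1.62 and 1.88 FPKM on those days. For Timp1 and Tgm1 day 3 was the highest of these days. Lcn2, lipocalin-2, was at 15.5, 16.9, 3.09 and 26.6 FPKM, so that day 7 was a low point between high libraries, and Steap4, a metal reductase, was unlisted on day 7 between 1.14 FPKM on day 3 and 2.72 on day 14. Stat3, the transcription factor of astrocyte reactivity, was at 13.9 and 7.21 FPKM, Osmr, a receptor upstream of it, at 2.55 and 1.47, and Serpina3n at 68.0 and 38.8, each below 0 without a call. Fbln5 was at 1.67 and 1.75 FPKM.

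Homeostatic astrocyte genes showed no call among 22, with 18 below 0 and a median log2 ratio of -0.14. Aqp4, the water channel of the endfeet, was at 50.6 and 35.2 FPKM, the potassium channel Kcnj10 at 49.7 and 38.5, Glul, glutamine synthetase, at 584 and 491, and Fgfr3 at 17.1 and 26.2. Of the NRF2 and antioxidant genes, 1 of 23 was called. Hmox1, which breaks down haem, was at 2.20 FPKM in sham, 27.0 on day 1, 65.2 on day 3, 19.7 on day 7, 8.60 on day 14 and 3.63 on day 28, with a log2 ratio of -1.72, while the list median was -0.09. Slc7a11 was at 11.3 and 8.37 FPKM, and the metallothionein Mt1 at 386 and 313.

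Endothelial and barrier genes had mostly ratios below 0, with 19 of 21 below 0, 4 called lower and a median log2 ratio of -0.51. Pecam1, the junction protein CD31, was at 3.33 FPKM in sham, 3.64 on day 1, 7.00 on day 3, 2.55 on day 7, 4.02 on day 14 and 3.13 on day 28. Eng, a TGF-beta co-receptor of growing vessels, was at 2.84, 2.85, 6.53, 2.86, 5.11 and 2.89 FPKM. For both, day 3 was the high library and day 7 was close to the sham level or below it. Tie1, an angiopoietin receptor partner, was at 2.32 and 0.944 FPKM, and Plvap, the diaphragm protein of leaky vessels, at 4.52 and 1.10, beside 5.07 on day 28. Slc2a1, the glucose carrier of the barrier, was at 20.9 and 15.9 FPKM, Mfsd2a, a lipid carrier there, at 7.47 and 6.68, and Ocln, a tight junction protein, at 2.34 and 2.16.

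Red blood cell genes differed between the libraries in the same direction. All 4 compared members of 9 were called lower, with Hbb-bs at 210 and 61.97 FPKM, Hbb-bt at 72.9 and 22.1 and Alas2, the first enzyme of haem synthesis in red cells, at 2.17 and 0.443. The summed level of the list was 293 FPKM in sham, 247 on day 1, 477 on day 3, 160 on day 7, 460 on day 14 and 193 on day 28. Hba-a2 shares reads with a near copy and 2.5% of its value on day 3 and 57.6% on day 7 came from events inside its span. These levels lay in the same direction as the endothelial genes between day 3 and day 7, and their part in the endothelial ratios was not tested. Pericyte genes had a median log2 ratio of -0.31 over 11 members, or -0.08 over the 8 with at least 1 FPKM in both libraries, with Notch3 called lower (1.91 and 0.880 FPKM) but not from its start events (-0.53), and Pdgfrb, the growth factor receptor of mural cells, at 4.33 and 4.30.

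Matrix genes differed in direction. The fibrotic matrix list had a median log2 ratio of 0.06 over 31 members, with 2 called higher. Of these, Col14a1 was under 1 FPKM on day 3 and entered through day 7. With at least 1 FPKM required in both libraries, 1 of 30 was called higher. Postn, periostin, was at 0.208 FPKM in sham, 0.0694 on day 1, 1.19 on day 3, 3.61 on day 7, 1.88 on day 14 and 0.792 on day 28, and Col14a1 at 0.574 and 1.62 FPKM. The fibrillar collagens Col1a1 (15.7 and 21.2 FPKM), Col1a2 (23.4 and 31.8) and Col3a1 (14.6 and 21.6) had ratios from 0.43 to 0.57 and their highest level on day 7. The basement membrane list had a median of -0.09 over 15. Perlecan Hspg2 (1.39 and 3.20 FPKM) and laminin Lama2 (0.821 and 2.63, beside 1.61 to 2.94 elsewhere) were called higher. The vessel laminin Lama4 (2.94 and 1.71) and Col4a1 (12.1 and 10.1) were below 0. Lama2 entered through day 7. With at least 1 FPKM required in both libraries, 1 of 12 basement membrane genes was called higher, at a median of -0.12. Of 21 matrix proteases and inhibitors, Mmp12, the macrophage elastase, was called higher, at 0.647 FPKM on day 1, 3.00 on day 3, 10.5 on day 7 and 2.15 on day 14. Timp1 was among the members called lower, and Plau, the urokinase, was at 4.09 and 7.78 FPKM.

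**Figure D4:**
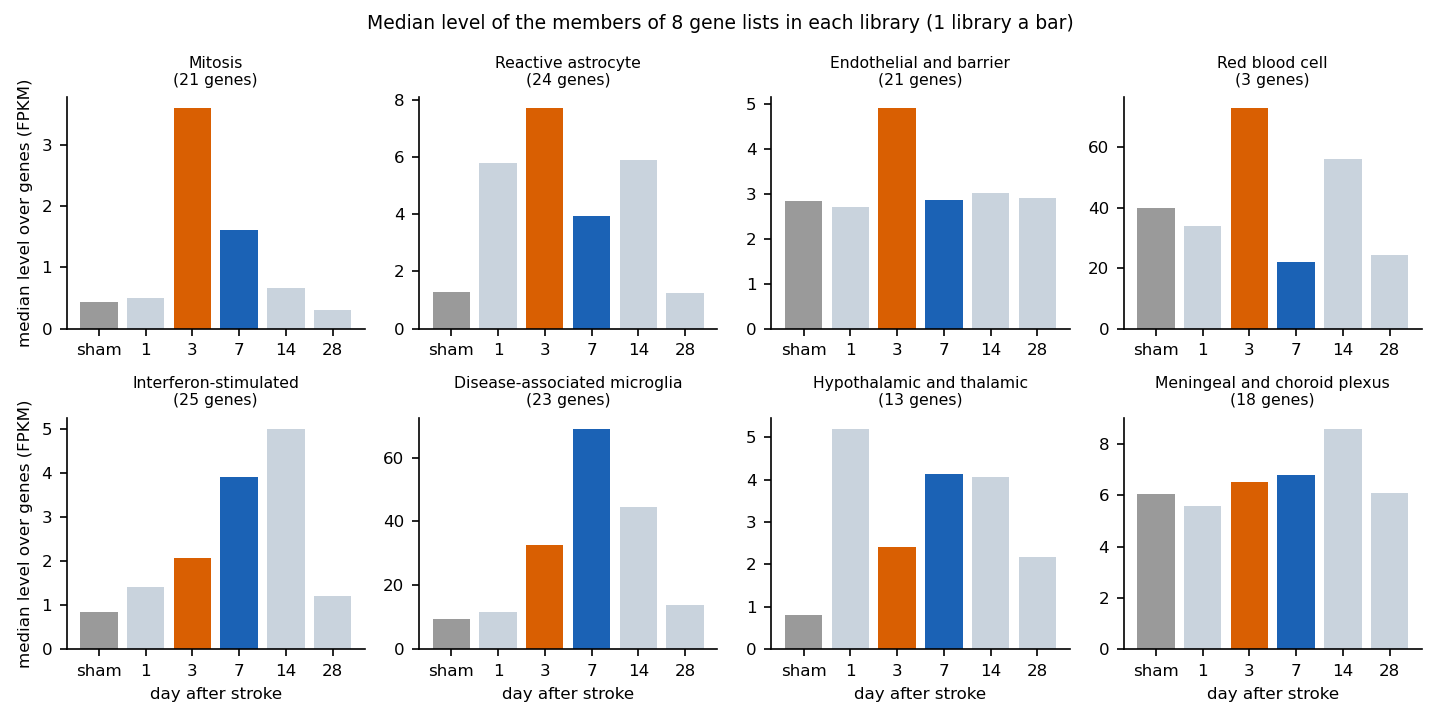
Median level over the compared members of 8 gene lists (FPKM, vertical axis from 0) in each library, 1 library a bar, with day 3 in orange, day 7 in blue and sham in dark grey; members with under 80% of their value inside the annotated span are left out and an unlisted gene counts as 0. The mitosis median was 3.60 on day 3 and 1.61 on day 7, against 0.309 to 0.655 in the other libraries, and the interferon-stimulated median 2.07 and 3.91, with 4.99 on day 14. Members were taken by a level of at least 1 FPKM on day 3 or day 7, which favours these libraries over the others.

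Genes of the hypothalamus and thalamus also differed, as did some of the choroid plexus. Of 13 hypothalamic and thalamic genes compared, of 20, 6 were called higher, with a median log2 ratio of 0.76. Of the 6, all but Avp were under 1 FPKM or unlisted on day 3 and so entered through day 7; with at least 1 FPKM required in both libraries, 1 of 8 was called and the median was 0.51. Avp, vasopressin, was not listed in sham and was at 18.9 FPKM on day 1, 4.24 on day 3, 18.1 on day 7, 11.7 on day 14 and 3.01 on day 28. Oxt, oxytocin, was at 9.28, 0.637, 7.46, 5.15 and 1.48 FPKM on the same days and unlisted in sham. Tnnt1 (0.613 and 2.59 FPKM) and the thalamic factor Tcf7l2 (0.662 and 1.496) were called as well, and Pomc (1.29) and Gal (2.24) were listed on day 7 and not on day 3. The summed level was 35.1 FPKM in sham, 99.4 on day 1, 39.5 on day 3 and 78.4 on day 7. Pmch, a lateral hypothalamic peptide, was at 5.13 and 7.74 FPKM.

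Meningeal and choroid plexus genes had a median log2 ratio of 0.36 over 18 members, with 15 above 0 and 3 below, and 3 were called higher. With at least 1 FPKM in both libraries 1 of 15 was called, and with at least 5 FPKM in either none of 11, at a median of 0.07. Folr1, a folate receptor of the choroid plexus, was at 1.55 and 4.17 FPKM, beside 2.34 to 7.56 in the other libraries and a log2 ratio of 0.65 from end events, and Otx2 (1.11) and Slc4a5 (1.14) were listed on day 7 and not on day 3. Ttr, transthyretin, was at 279 FPKM in sham, 450 on day 1, 177 on day 3, 336 on day 7, 291 on day 14 and 549 on day 28, and Ptgds was at 711 and 1092. Igfbp2 went the other way, at 94.3 and 54.3 FPKM. Igf2 (26.5 and 27.8 FPKM), Slc6a13 (7.55 and 7.75) and Slc6a20a (9.32 and 9.38) were nearly equal at both times. For Ttr and Folr1, day 3 was the lowest of the 6 libraries. The summed level of the list was 1256 FPKM on day 3 and 1791 on day 7. The part of dissection in the other ratios was not tested.

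Neuronal lists lay near 0. Presynaptic genes had a median log2 ratio of 0.05 over 24 members, postsynaptic genes -0.03 over 25, excitatory cortical layer genes -0.08 over 22, interneuron genes 0.10 over 16 and striatal projection neuron genes 0.16 over 13. Syt1, the calcium sensor of vesicle release, was at 171 and 199 FPKM, and the glutamate carrier Slc17a7 at 248 and 231. At most 1 gene was called in each of these lists. Rims1 was listed at 12.4 FPKM on day 7 and unlisted on day 3 but also on day 14 and day 28, Gphn was at 9.76 FPKM on day 3 and 3.89 on day 7 beside 2.95 to 6.42 elsewhere, and Adarb2 (0.937 and 2.13) lost the call from its start events. Cux2, an upper layer factor, was at 12.6 FPKM on day 3, 4.98 on day 7 and 5.53 on day 14, beside 13.4 to 15.3 in the other libraries. No striatal gene was called.

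Axon growth genes had a median log2 ratio of 0.10 over 17 members. Gap43, the growth cone protein, was at 111 and 129 FPKM and Atf3, a factor of injured neurons, at 2.94 and 4.39. Tubb6, a tubulin, was called lower (11.7 and 4.87 FPKM). Immediate early genes had a median of -0.08 over 21, with Arc at 44.9 and 29.6 FPKM, Nr4a1 at 12.3 and 18.3, and Fosl1, the single call, listed at 2.19 FPKM on day 3 and not on day 7.

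Oligodendrocyte lists lay near 0 too. Myelin genes had a median log2 ratio of 0.04 over 18 members, with Mag, an adhesion protein, the single member called, at 26.8 and 69.0 FPKM, beside 33.8 to 62.6 in the other libraries. Precursor genes had a median of 0.10 over 12, with 8 above 0 and 4 below. Bcas1 was at 91.6 and 81.2 FPKM, Ptprz1 at 34.7 and 26.7, and Tnr at 15.6 and 9.20, each below 0. Cspg4, the NG2 proteoglycan, was at 2.09 and 3.41 FPKM, and Enpp6, a marker of newly forming oligodendrocytes, at 2.39 and 3.93. The factor Nkx2-2 was called lower at 1.32 and 0.228. Cholesterol synthesis genes, which supply myelin, had a median of 0.08 over 23, with 15 above 0.

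Metabolic and housekeeping lists stayed at the background. The medians were 0.02 over 23 hypoxia and glycolysis genes and -0.04 over 16 heat shock and unfolded protein response genes, with no call in either. Over 25 cytosolic ribosomal protein genes the median was 0.07 and over 19 widely expressed reference genes 0.05, again with no call. Of 28 respiratory chain genes, with a median of 0.05, Uqcrq was called higher (2.18 and 4.97 FPKM) and Cox5b lower (106 and 52.2). Slc16a3, the lactate exporter, was at 2.80 and 4.54 FPKM, and Adm, a hypoxia-induced vessel peptide, at 1.69 and 0.855.

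Among genes listed in both libraries with at least 80% of their value inside the span, the largest gains in FPKM were those of Ctsd, Spp1, Ptgds, Camk2a, Lyz2, Mbp, Aldoa, Ttr, Eef1a1 and Cox6a1. Of these, Spp1 and Lyz2 were called. The largest losses belonged to Cst3, Apoe, Camk2n1, Gfap, Calm2, Hbb-bs, Fth1, Rpl26, Nptn and Atp6v1g2. Cst3, cystatin C, was at 1321 and 758 FPKM. The direction of several of these rests on the event type. From start events alone the log2 ratio of Cst3 was 11.94, and from end events alone that of Camk2n1 was 8.71, of Rpl26 7.78, of Mbp -4.75 and of Eef1a1 -1.02, each opposite in sign to the value used. Nptn, a synaptic adhesion protein, was at 164 FPKM on day 3 and 44.9 on day 7, beside 149 to 220 in the other libraries, and Atp6v1g2, a neuronal proton pump subunit, at 162 and 45.4, beside 118 to 244. In both day 7 alone was low.

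Several of the extreme ratios also had 1 library apart from the others. Tug1, a long noncoding RNA, was at 0.0035 FPKM on day 7 and between 11.5 and 13.3 in each of the other 5 libraries. Ablim1, an actin-binding protein, was at 0.0783 FPKM on day 7 and 6.88 to 13.7 elsewhere, and Capns1, the small calpain subunit, at 9.25 and 55.2 to 85.4. Zdhhc22 (9.46 FPKM), Cdk5r1 (37.8) and Inava (1.60) had their highest level on day 3. Tmem237 (7.87 FPKM) and Lcp1 (18.8) had their highest level on day 7, and Lcp1, an actin bundler of leukocytes, had a log2 ratio of 0.01 from shared events. Dph2 (0.0376 FPKM), Greb1l (0.0545) and Wdr86 (0.0763) had their lowest level on day 3. AW495222, Lrrc47, AA465934, Zbtb26, 1500026H17Rik, Ccl21c and Kif4 were also among the 15 lowest ratios, and Cdkn2d, Txnl4a, Ccdc159, Lbhd2, Traf3ip2, Slc39a3, Gspt2 and Dcx among the 15 highest.

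Dcx, doublecortin of young neurons, was at 0.360 FPKM in sham, 0.211 on day 3, 2.45 on day 7, 2.35 on day 14 and 0.417 on day 28, so that day 7 and day 14 stood together. Of the 237 genes called higher that were listed in all 6 libraries, day 7 was the highest library for 107 and day 3 the lowest for 128. For 77 of them day 3 lay outside the range of the other 4 libraries with day 7 inside it, for 58 the reverse held, and for 55 both lay outside. A call of higher needs day 7 above day 3, which by itself favours day 7 as highest and day 3 as lowest. The share over all genes was not counted.

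The genes called lower were divided in a like manner. Of 213 listed in all 6 libraries, day 3 was the highest for 114 and day 7 the lowest for 127, while day 3 alone lay outside the other 4 for 54, day 7 alone for 71 and both for 65. Here too the call itself favours day 3 as highest and day 7 as lowest. Transcript length had a weak relation to the ratio, with a Spearman rho of -0.12 over 12035 genes, and genes are not replicates. The longest annotated transcript had a median of 2923 bases for genes called higher, 3327 for genes called lower and 3447 for all.

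Of genes listed at 1 of the times, Rpl29 (52.7 FPKM), AI593442 (15.6), Rpl7a (12.7), Ifi30 (5.89) and Tmem88b (4.59) had the highest levels on day 3 and no listing on day 7; for Rpl7a 74.4% of the value was inside its span. Rpl41 (154 FPKM), mt-Te (36.8, span not checked), Sumo2 (35.4), Gm2451 (23.1) and AC113458.1 (17.2) were listed on day 7 and not on day 3. Rpl41 was at 179 FPKM in sham and 0.491 on day 1, and Sumo2 was listed in no other library, so a missing listing is not read as absence of the RNA.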

How the data were processed

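Total RNA of the ipsilateral cortex, pooled from 3 mice per time, gave 1 poly(A)-selected, strand-specific library per group, sequenced as paired 150-base reads; the depth of each library cannot be read from FPKM and is unknown here. The authors deposited FPKM values per transcript start, transcript end and splicing event, each with an Ensembl gene identifier. The submitters' processing notes name Trimmomatic 0.30, HISAT2 2.0.1, HTSeq 0.6.1 and mm10; the tool that gave the event FPKM is not given in the sources used here.

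Repeated event rows were dropped and 1 value per gene was built as described in the report. A value can miss transcripts whose events were not listed. An unlisted gene was taken as 0 for counts. Coordinates and gene types are from GENCODE M21 (GRCm38), which matched 15429 identifiers. Genes with at least 1 FPKM in either library were compared by log2((day 7 + 0.1)/(day 3 + 0.1)) with a threshold of 1 and no test, since each group is 1 library. The genes named are the 15 largest and 15 smallest ratios and the 10 largest gains and losses in FPKM among genes listed in both libraries with at least 80% of their value inside the annotated span, the 5 highest listed at 1 time only on each side, and, of 41 gene lists, members past the threshold or of highest level. The members and lists were chosen with earlier results of these data known, and some members (Spp1, Clec7a, Gpnmb and Lcn2, for example) are genes the study itself discusses from these libraries. Promoter sequences are from RefSeq (GRCm38.p6). Scripts used Python 3.11.15, numpy 2.4.6, pandas 2.3.3 and matplotlib 3.10.9 and were tested on simulated event tables. Some members of the lists are counted but not reported by name here.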

Additional observations from a re-analysis of the deposited data

How the results depend on the processing

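The 2-fold counts of 392 genes higher and 342 lower at day 7 moved by over 1.5 times with the pseudocount, the filter and the threshold. They were 221 and 189 with a pseudocount of 1, 172 and 156 with at least 1 FPKM in both libraries, 126 and 111 with at least 5 FPKM in either, and 1074 and 878 with no filter. A log2 threshold of 2 gave 117 and 102 genes, and a 1.5-fold threshold 976 and 834. Under every other alternative run (start or end sums, events inside the span, pseudocount 0.01, genes listed in both, 2 scalings, centring, a length correction, protein-coding genes, and events shared by both libraries, the last chosen after seeing the data) the counts stayed between 289 and 511 higher and between 257 and 482 lower. Of 145 genes followed, H2-DMa turned from 1.31 to -0.10 with the end sum and with shared events, and Hba-a2 from -1.35 to 3.15 inside its span; Cst3, Camk2n1, Rpl26, Mbp and Eef1a1, none of them called, changed sign with start or end sums (11.94, 8.71, 7.78, -4.75 and -1.02); a pseudocount of 1 took 34 below the threshold, Ifit3, Oasl2, Cdk1, Pbk, Eng and Tie1 among them. The mitosis median was -0.52 with a pseudocount of 1, -0.58 with at least 1 FPKM in both libraries and -1.21 with at least 5 FPKM in either; the hypothalamic and thalamic median was 0.51 and 0.55 under these filters. With at least 5 FPKM in either library, the matrix protease median was -0.12, the meningeal and choroid plexus median 0.07 and the complement median 0.41. The medians also moved for MHC class II (-0.05) and complement (0.53) with end sums, homeostatic microglia with start sums (0.26), pericytes with 1 FPKM in both (-0.08), red blood cells with a pseudocount of 1 (-1.51) and the Fc gamma receptor list with no filter (0.54). With a pseudocount of 1, 9 interferon-stimulated and 2 endothelial members were called in place of 14 and 4. For the moved values the cause was not tested. No paired analysis was possible because each group has 1 library, and leaving out a library would leave no comparison.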

Other observations

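The following genes, chosen after their values were seen, belong to none of the lists and were called in the comparison of day 7 with day 3. Cd72, a B cell and microglia receptor, was at 2.02 FPKM on day 1, 2.94 on day 3, 11.4 on day 7 and 4.74 on day 14 and was not listed in sham or on day 28. Apobec1, a cytidine deaminase, was at 1.18 FPKM in sham, 1.36 on day 1, 2.57 on day 3, 8.34 on day 7, 4.32 on day 14 and 0.673 on day 28. Cd180, a TLR-like receptor, was at 5.89 and 12.99 FPKM on day 3 and day 7 and at no more than 3.71 elsewhere, and Cd5l, a secreted protein of macrophages, at 6.29 and 13.9 with no more than 3.43 elsewhere. Lag3, an immune checkpoint receptor, was at 5.53 and 12.9 FPKM with 16.9 on day 14.

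Among genes lower on day 7, also chosen after their values were seen, were 3 of vessels. Ptprb, the endothelial phosphatase VE-PTP, was at 3.24 and 1.28 FPKM, and the adhesion receptors Adgrl4 and Adgrf5 were at 6.01 and 2.79 and at 3.47 and 1.33. Day 3 was the highest of the 6 libraries for all 3. Ckap2, a spindle protein outside the mitosis list, was at 4.54 and 1.21 FPKM, and at 1.04 or less in the other libraries. Srgn, the proteoglycan of secretory granules, was at 23.2 and 10.2 FPKM, beside 16.6 on day 1 and 14.6 on day 14. Prox1, a transcription factor of lymphatic vessels and dentate neurons, was at 4.24 and 1.21 FPKM, with at most 0.765 in the other libraries that list it.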
